A study of Arabidopsis thaliana with 12 samples.

Results

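The comparison described here was that of Arabidopsis seedlings labelled prt6-1 with Col-0 seedlings grown in normal air. It took in 8 of the 12 RNA-seq libraries of the series, 4 per genotype, chosen by their genotype labels alone. Col-0 is the wild-type accession. prt6-1 carries a mutant allele of PRT6, which encodes an E3 ubiquitin ligase of the N-degron pathway. The remaining 4 libraries came from prt6-1erfvii, in which the prt6 mutation is combined with mutations in HRE1, HRE2, RAP2.2, RAP2.3 and RAP2.12, and they were used only for values set beside those of prt6-1. Whole seedlings of all genotypes were 7 days old, were grown on agar without sucrose in continuous light, and were harvested untreated. prt6-1 was the only prt6 mutant compared with Col-0, and the libraries of a genotype were labelled as biological replicates. Because whole seedlings were sequenced, fewer cells of a type and less RNA per cell cannot be told apart.

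Plants sense oxygen through the lifetime of the group VII ethylene response factors (ERFVIIs). These transcription factors begin with Met-Cys, the plant cysteine oxidases (PCOs) oxidise the exposed cysteine when oxygen is present, arginyl transferases add arginine, and PRT6 then marks the protein for degradation. Without oxygen, or without PRT6, the ERFVIIs persist and activate the core hypoxia genes, many of which serve sucrose breakdown, fermentation and the handling of nitric oxide. The question asked of the data was which genes differed in the mutant although oxygen was present.

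The 4 prt6-1 libraries held between 24252447 and 27341302 counts and the 4 Col-0 libraries between 23156637 and 25816881. Levels are given as counts per 1000000 counts of the library (CPM), scaled by the trimmed mean of M values (TMM), and are compared between libraries and not between genes. The first principal component of the 20899 genes tested held 29.3% of the variance and placed the prt6-1 libraries at 12.2 to 29.5 and the Col-0 libraries at −22.5 to −15.9. The second component held 16.7% and had prt6-1 replicates 2 and 4 at its opposite ends, at 26.4 and −26.4. The median correlation of a prt6-1 library with the others of its genotype was lowest for replicate 2, at 0.9875. It was 0.9881 for replicate 4. By the measures that follow, replicate 4 of prt6-1 stood apart from the others of its genotype. The chi-square per degree of freedom between its counts and those of prt6-1 replicates 1 to 3 was 12.02 to 15.1, whereas all other pairs within prt6-1 and Col-0 gave 3.88 to 5.74. Its long transcripts were low, with a median log2 deviation from the prt6-1 mean of −0.43 for the 273 genes over 5000 bases, among the 15435 that averaged at least 5 CPM and had a length, against 0.11 to 0.17 in the other prt6-1 replicates and −0.06 to 0.06 in the Col-0 libraries. Counts are therefore given with and without this library for some of the results, and its part in the results that remain was not tested.

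**Figure D1:**
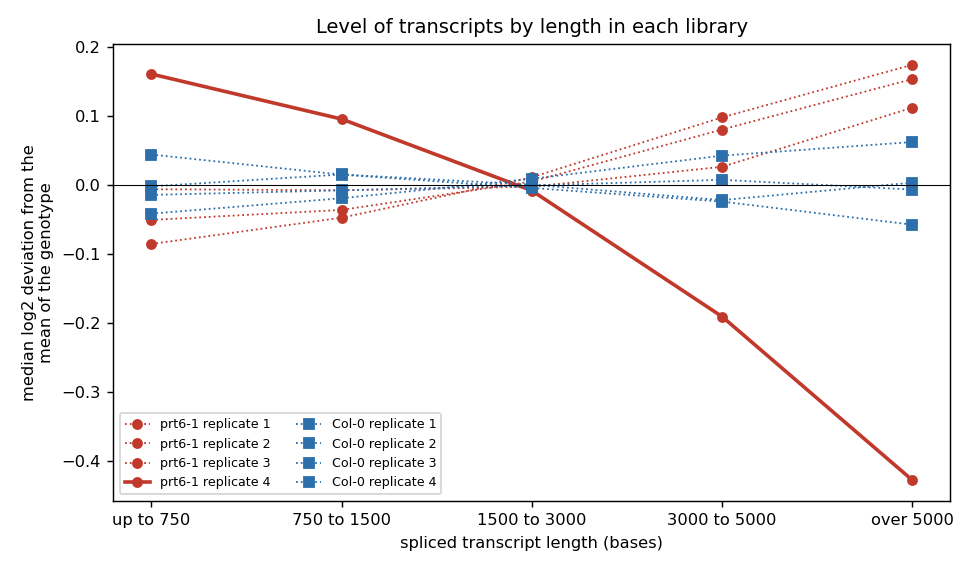
Median log2 deviation of each library from the mean of its genotype (y axis) in 5 classes of spliced transcript length in bases (x axis), for prt6-1 (circles) and Col-0 (squares). The solid line is prt6-1 replicate 4, which falls to −0.43 for transcripts over 5000 bases, and the other 7 libraries stay between −0.06 and 0.17 in that class.

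PRT6 itself (AT5G02310, chromosome 5) was not reduced in the libraries labelled prt6-1. They had 73.6, 61.3, 76.4 and 45.1 CPM of PRT6, and the Col-0 libraries had 62.7, 64.9, 65.2 and 56.3 CPM. The genotypes overlapped (log2 fold change 0.04 ± 0.15 (SE), edgeR adjusted p = 0.954), and the lowest prt6-1 value was that of replicate 4. In prt6-1erfvii the level was 10.1, 9.26, 7.22 and 9.69 CPM, below every prt6-1 and Col-0 library. The mutants thus differed in PRT6 level as well as in the ERFVII mutations. The part of that PRT6 difference in values set side by side for prt6-1 and prt6-1erfvii was not tested. Counts per gene do not show which part of a transcript was made, so the PRT6 level neither identifies nor contradicts an allele whose transcript is still made, and the genotype rests on the labels in every direction given below. The PRT6 transcript has 6769 spliced bases and lies in the length class that was low in replicate 4. Without that library its log2 fold change was 0.18 (edgeR adjusted p = 0.144).

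Of the 37885 genes in the table, 20899 had enough counts to be tested with edgeR's quasi-likelihood test, and 455 (2.18%) were called at a Benjamini-Hochberg adjusted p under 0.05. Of these, 227 (1.09% of the genes tested) were higher and 228 (1.09%) were lower in the libraries labelled prt6-1. The higher genes changed by more. Their median log2 fold change was 0.58, that of the lower genes was −0.38, and that of all genes tested was 0.00. At least a 2-fold difference was seen for 65 of the higher and 16 of the lower genes, and at least an 8-fold difference for 17 and 5 of them. Core hypoxia genes made up 22 of the 65. The 4 prt6-1 values and the 4 Col-0 values did not overlap for 435 of the called genes, and 1621 genes (7.76%) of all those tested had no overlap. Without prt6-1 replicate 4 the calls increased to 1231 of 21031 genes (5.85%), with 576 higher (2.74%) and 655 lower (3.11%). Without Col-0 replicate 2 they decreased to 281.

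**Figure D2:**
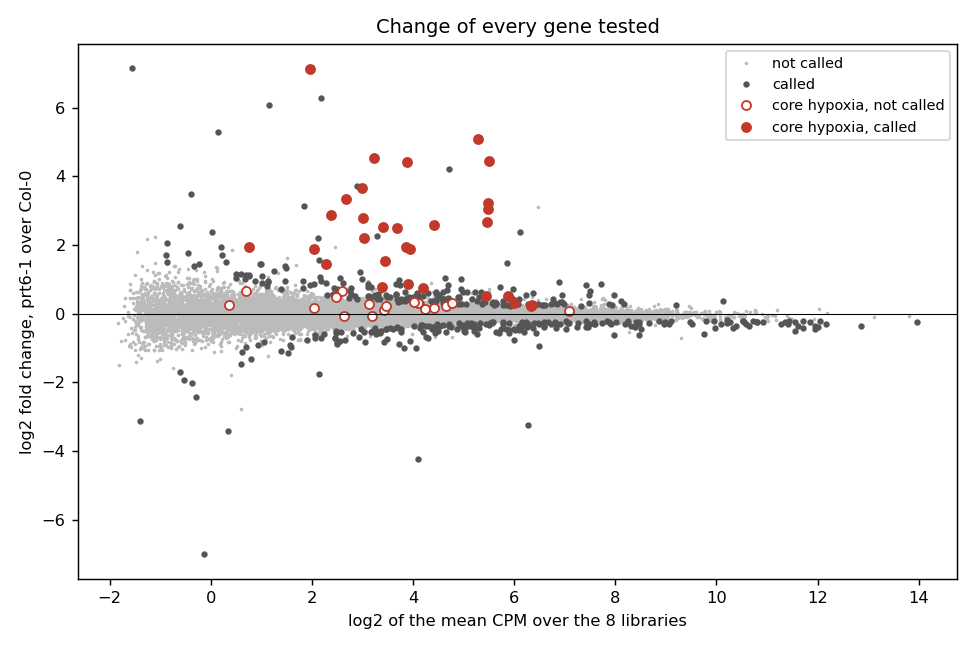
Log2 fold change of prt6-1 over Col-0 (y axis) against the log2 of the mean CPM over the 8 libraries (x axis) for the 20899 genes tested. Filled dark points were called at an adjusted p under 0.05 and filled red points are called core hypoxia genes. The 29 called core hypoxia genes all lie above 0, up to 7.13, and the lower calls mostly stay close to 0 with a median of −0.38.

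The core hypoxia genes are 49 transcripts raised by low oxygen across plant tissues, listed in an earlier study. In the libraries labelled prt6-1, 29 of the 47 that could be tested were higher and 0 were lower, against 1.09% of all genes in each direction. Their median log2 fold change was 0.76, against 0.00 for all genes tested. The other 18 were not called by edgeR, 16 of them with positive values, and their log2 fold changes ran from −0.08 to 0.67. Without replicate 4 of prt6-1 the count was 31, against 2.74% of all genes called higher. The summed level of the list was 1346 to 1490 CPM in prt6-1, against 705 to 722 CPM in Col-0.

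**Figure D3:**
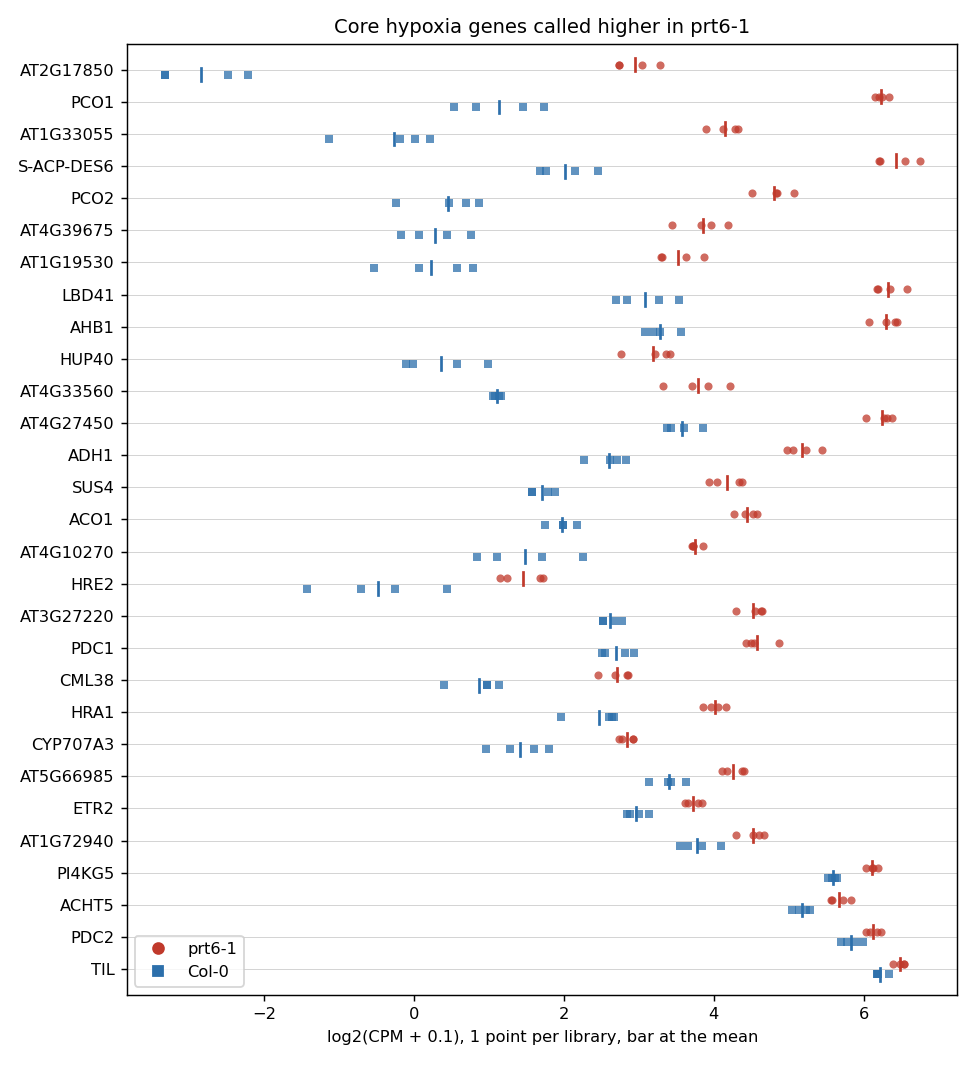
Level of the 29 called core hypoxia genes as log2(CPM + 0.1) (x axis), with 1 point per library and a bar at the mean, for prt6-1 (circles) and Col-0 (squares). Genes are ordered by fold change, from AT2G17850 at the top with a log2 fold change of 7.13 to TIL at the bottom with 0.26. In none of the 29 do the genotypes overlap, as in 435 of all 455 genes called.

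Among the oxygen-sensing enzymes, PCO1 and PCO2 rose steeply. PCO1 had 73.9, 71.01, 75.6 and 80.5 CPM in prt6-1, against 3.22, 2.64, 1.67 and 1.34 CPM in Col-0 (log2 fold change 5.09 ± 0.16 (SE), edgeR adjusted p = 2.05e-10). PCO2, a second cysteine oxidase gene of the hypoxia-responsive kind, had 28.2, 22.6, 28.6 and 33.4 CPM in prt6-1 and 1.52, 1.73, 1.28 and 0.751 CPM in Col-0 (log2 fold change 4.42 ± 0.17 (SE), edgeR adjusted p = 2.52e-11). In both, the lowest prt6-1 library was more than 8-fold above the highest Col-0 library. PCO3, PCO4 and PCO5, members of the same family, had log2 fold changes of 0.00, −0.10 and 0.16 and overlapping libraries. PCO5, the largest of these values, lay at 17.8, 19.97, 18.1 and 15.6 CPM in prt6-1 and 14.3, 16.2, 17.1 and 16.5 CPM in Col-0 (edgeR adjusted p = 0.517).

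No other member of the N-degron list passed the test, which leaves 2 of 15 called higher, against 1.09% of all genes. Without prt6-1 replicate 4 it was 3 of 15, against 2.74% of all genes. The arginyl transferase genes ATE1 and ATE2, which attach arginine to the oxidised cysteine, had log2 fold changes of −0.01 and 0.02. The methionine aminopeptidase genes MAP1A, MAP2A and MAP2B, whose products expose the cysteine, had 0.04, 0.12 and 0.16. The amidase genes NTAN1 and NTAQ1 had 0.06 and −0.05, and PRT1, an E3 ligase for aromatic amino termini, had 0.04. BIG, a very large protein with a part in the N-degron pathway and in auxin transport, was the gene called without replicate 4. Its transcript of 15700 spliced bases gave 123, 108, 107 and 50.2 CPM in prt6-1, against 104, 93.4, 96.6 and 86.5 CPM in Col-0, so replicate 4 had the lowest level of the 8 libraries. The log2 fold change of BIG was 0.03 with all libraries and 0.25 without replicate 4 (edgeR adjusted p = 0.0147).

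Of 8 genes for Met-Cys proteins that this pathway degrades and for the regulator HRA1, 2 rose and 0 fell. Over all genes tested, 1.09% were called in each direction. DESeq2 called 1 of the 8 lower, against 1.63% of all genes to which it gave an adjusted p. RAP2.12, the ERFVII best known for switching on fermentation genes, had 98.4, 93.6, 92.1 and 110.4 CPM in prt6-1 and 100.3, 99.03, 95.8 and 88.8 CPM in Col-0 (log2 fold change 0.04, edgeR adjusted p = 0.885). RAP2.2 had a log2 fold change of 0.07, and VRN2, a Polycomb subunit of the vernalisation response, had −0.01. ZPR2, a LITTLE ZIPPER regulator of shoot meristem activity, stayed below 1 CPM in every prt6-1 and Col-0 library. RAP2.3 was at 68.1, 57.3, 65.8 and 83.4 CPM in prt6-1, against 77.2, 81.4, 97.9 and 86.3 CPM in Col-0, with overlapping libraries and no call (log2 fold change −0.32 ± 0.10 (SE), edgeR adjusted p = 0.149). Without prt6-1 replicate 4, whose value was the highest of the prt6-1 libraries, RAP2.3 was called lower (log2 fold change −0.42, edgeR adjusted p = 0.00156).

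HRE2, an ERFVII gene that is itself induced by hypoxia, rose. It had 3.19, 2.28, 2.1196 and 3.11 CPM in prt6-1, against 0.741, 1.26, 0.273 and 0.514 CPM in Col-0 (log2 fold change 1.94 ± 0.32 (SE), edgeR adjusted p = 0.0015). HRE1, its close relative, had 5.87, 6.07, 5.72 and 5.07 CPM in prt6-1 and 4.75, 4.21, 3.504 and 4.03 CPM in Col-0. These HRE1 values did not overlap, yet they missed the threshold (log2 fold change 0.47 ± 0.14 (SE), edgeR adjusted p = 0.0952) and passed it without prt6-1 replicate 4 (edgeR adjusted p = 0.0391). HRA1, a trihelix protein that restrains RAP2.12 and is induced by it, had 16.6, 14.4, 15.5 and 17.9 CPM in prt6-1 and 6.14, 6.26, 3.82 and 5.97 CPM in Col-0 (log2 fold change 1.54 ± 0.13 (SE), edgeR adjusted p = 2.19e-07). Every prt6-1 library was above every Col-0 library for HRE2 and HRA1, and 435 of all 455 genes called had no overlap.

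Of 12 fermentation genes, 4 were called higher and 0 lower, against 1.09% of all genes in each direction. ADH1, the alcohol dehydrogenase that makes ethanol from acetaldehyde, had 43.3, 33.3, 37.3 and 31.5 CPM in prt6-1, against 7.01, 6.42, 6.03 and 4.71 CPM in Col-0 (log2 fold change 2.59 ± 0.12 (SE), edgeR adjusted p = 3.53e-11). An annotated gene on the opposite strand, AT1G77122, overlaps ADH1, and whether strand was used in counting is not given in the sources used here. PDC1, the hypoxia-responsive pyruvate decarboxylase that supplies the acetaldehyde, had 29.03, 22.5, 21.4 and 23.1 CPM in prt6-1 and 7.58, 6.93, 5.76 and 5.57 CPM in Col-0 (log2 fold change 1.90 ± 0.12 (SE), edgeR adjusted p = 8.75e-10). PDC2, its paralogue, rose by far less, with 65.4, 72.05, 74.9 and 68.02 CPM in prt6-1 and 63.4, 54.8, 58.8 and 51.7 CPM in Col-0 (log2 fold change 0.30 ± 0.07 (SE), edgeR adjusted p = 0.0298). LDH, lactate dehydrogenase, had 19.5, 18.5, 18.19 and 20.9 CPM in prt6-1 and 16.6, 15.4, 14.5 and 15.1 CPM in Col-0 (log2 fold change 0.33 ± 0.08 (SE), edgeR adjusted p = 0.0396). The calls of PDC2 and LDH were lost when some single libraries were left out, and those of ADH1 and PDC1 were not. The 8 members not called included PDC3, PDC4 and the alanine aminotransferase genes ALAAT1 and ALAAT2, with log2 fold changes of 0.38, −0.33, 0.07 and 0.21.

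Sucrose synthases cleave sucrose without spending ATP and feed glycolysis under low oxygen. SUS4 had 20.6, 16.3, 20.1 and 15.3 CPM in prt6-1, against 2.88, 2.88, 3.58 and 3.36 CPM in Col-0 (log2 fold change 2.51 ± 0.13 (SE), edgeR adjusted p = 3.53e-11). SUS1, its close paralogue, also rose, with 41.2, 38.9, 42.4 and 40.2 CPM in prt6-1 and 26.7, 26.7, 25.04 and 26.6 CPM in Col-0 (log2 fold change 0.63 ± 0.07 (SE), edgeR adjusted p = 4.43e-06). The remaining 14 members of the list, among them phosphofructokinase genes and the cytosolic glyceraldehyde phosphate dehydrogenases GAPC1 and GAPC2, were not called, and the list had a median log2 fold change of 0.10. PFK6, the phosphofructokinase gene that is also a core hypoxia gene, had 11.7, 11.3, 11.1 and 13.2 CPM in prt6-1 and 11.9, 10.99, 7.904 and 10.04 CPM in Col-0, with overlapping libraries (edgeR adjusted p = 0.479).

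AHB1, the class 1 haemoglobin that removes nitric oxide under hypoxia, had 86.8, 66.9, 78.5 and 85.1 CPM in prt6-1, against 11.7, 9.65, 8.37 and 9.05 CPM in Col-0 (log2 fold change 3.04 ± 0.10 (SE), edgeR adjusted p = 3.67e-13). The other haemoglobin genes, AHB2 and GLB3, were not called and had log2 fold changes of −0.07 and 0.18. S-ACP-DES6, a stearoyl-acyl carrier protein desaturase of the core hypoxia set, was among the largest changes, with 93.5, 73.4, 74.2 and 107 CPM in prt6-1 and 5.403, 4.33, 3.11 and 3.28 CPM in Col-0 (log2 fold change 4.44 ± 0.19 (SE), edgeR adjusted p = 7.73e-07). LBD41, a LOB domain transcription factor gene, had 81.5, 72.1, 72.8 and 95.3 CPM in prt6-1 and 9.59, 11.5, 6.39 and 7.08 CPM in Col-0 (log2 fold change 3.22 ± 0.18 (SE), edgeR adjusted p = 6.6e-06). CML38, a calmodulin-like protein of hypoxia-induced RNA granules, had 6.31, 7.15, 5.37 and 7.06 CPM in prt6-1 and 1.87, 1.22, 1.87 and 2.096 CPM in Col-0 (log2 fold change 1.87 ± 0.17 (SE), edgeR adjusted p = 6.8e-07). For AHB1, S-ACP-DES6, LBD41 and CML38 the prt6-1 and Col-0 libraries were fully separated, as in 435 of all 455 genes called.

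Of 19 ethylene genes, 4 were called higher and 1 lower, against 1.09% of all genes in each direction, and the median log2 fold change was 0.05. ACO1, which encodes an ACC oxidase of the last step of ethylene synthesis, had 23.7, 19.3, 21.3 and 23.01 CPM in prt6-1, against 3.88, 3.27, 3.85 and 4.43 CPM in Col-0 (log2 fold change 2.50 ± 0.11 (SE), edgeR adjusted p = 3.49e-12). ACS6, an ACC synthase gene of the step before, had 35.3, 40.6, 33.03 and 44.6 CPM in prt6-1 and 19.2, 20.4, 26.05 and 27.9 CPM in Col-0 (log2 fold change 0.71 ± 0.12 (SE), edgeR adjusted p = 0.00615). ETR2, an ethylene receptor gene in the core hypoxia set, had 12.1, 14.2, 13.7 and 12.5 CPM in prt6-1 and 7.93, 8.67, 7.28 and 7.08 CPM in Col-0 (log2 fold change 0.76 ± 0.10 (SE), edgeR adjusted p = 0.000167). These 3 genes had no overlap between genotypes, as in 435 of all 455 genes called. EBF1, an F-box protein gene that limits the response to ethylene, was called at the very edge of the threshold (log2 fold change 0.26, edgeR adjusted p = 0.04999).

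Further core hypoxia genes changed strongly. AT2G17850, annotated as a rhodanese-like protein, had 9.604, 6.55, 8.13 and 6.58 CPM in prt6-1, against 0, 0.0788, 0.117 and 0 CPM in Col-0 (log2 fold change 7.13 ± 0.35 (SE), edgeR adjusted p = 2.52e-11). AT1G33055, an uncharacterised protein, had 19.97, 14.8, 17.3 and 19.3 CPM in prt6-1 and 0.915, 1.06, 0.779 and 0.356 CPM in Col-0 (log2 fold change 4.52 ± 0.19 (SE), edgeR adjusted p = 3.49e-12). HUP40, a hypoxia-responsive gene of unknown function, had 10.5, 6.67, 9.22 and 10.2 CPM in prt6-1 and 0.828, 1.89, 0.896 and 1.38 CPM in Col-0 (log2 fold change 2.86 ± 0.22 (SE), edgeR adjusted p = 7.81e-08). All of these were at or below 2 CPM in every Col-0 library. AT4G27450, annotated as an aluminium-induced protein, had 82.9, 65.3, 79.6 and 77.2 CPM in prt6-1 and 10.7, 10.3, 14.4 and 12.1 CPM in Col-0 (log2 fold change 2.68 ± 0.10 (SE), edgeR adjusted p = 1.14e-12). AT4G33560, annotated as a wound-responsive protein, and AT3G27220, a kelch repeat protein, rose with log2 fold changes of 2.78 and 1.93. AT4G10270, another wound-responsive family gene, had 14.4, 13.1, 13.1 and 12.98 CPM in prt6-1 and 1.699, 4.69, 2.06 and 3.16 CPM in Col-0 (edgeR adjusted p = 0.000115). AT4G27450 and AT4G10270 overlap genes on the opposite strand and are uncertain for that reason. AT5G66985 and AT1G72940, a TIR domain protein, rose by less, with 0.87 and 0.74.

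Further core calls were CYP707A3, an abscisic acid hydroxylase gene, and some genes that changed by less. CYP707A3 had 6.56, 7.51, 6.75 and 7.51 CPM in prt6-1 and 3.399, 1.85, 2.34 and 2.93 CPM in Col-0 (log2 fold change 1.44 ± 0.16 (SE), edgeR adjusted p = 1.44e-05). PI4KG5, a phosphoinositide kinase-like gene, rose by 0.53 on the log2 scale, ACHT5, an atypical thioredoxin of the chloroplast, by 0.50, and TIL, a temperature-induced lipocalin gene, by 0.26. TIL had 92.6, 92.7, 83.7 and 89.1 CPM in prt6-1, against 72.98, 80.9, 72.3 and 72.3 CPM in Col-0, and its call was lost when single libraries were left out.

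The summed core hypoxia level in prt6-1erfvii, the genotype that lacks the ERFVIIs, was 884 to 954 CPM. This lay above every Col-0 library and below every prt6-1 library. Some core genes, picked out after their values were seen, are set beside prt6-1erfvii here. Of these, AT4G39675, AT1G19530 and ACHT5 were above every Col-0 library in prt6-1erfvii too. A test of prt6-1erfvii against Col-0 was not run. The prt6-1 libraries are shared between the comparison with Col-0 and that with prt6-1erfvii, so the values are only set side by side. AT4G39675, an uncharacterised protein, had 14.1, 10.7, 18.16 and 15.5 CPM in prt6-1, 1.26, 0.788, 1.596 and 0.949 CPM in Col-0 and 5.602 to 13.6 CPM in prt6-1erfvii. Its log2 fold change was 3.67 over Col-0 (edgeR adjusted p = 7.51e-10) and 0.58 over prt6-1erfvii (edgeR adjusted p = 0.129). AT1G19530, whose annotation names no established function, had 12.3, 9.705, 14.6 and 9.84 CPM in prt6-1, 1.39, 0.591, 1.64 and 0.949 CPM in Col-0 and 20.3 to 32.9 CPM in prt6-1erfvii, so that the mutant without ERFVIIs was the highest. The log2 fold change of prt6-1 was 3.35 over Col-0 and −1.06 over prt6-1erfvii (edgeR adjusted p = 0.000943). ACHT5 gave the same order, with 47.1, 47.8, 52.95 and 56.7 CPM in prt6-1, 35.1, 37.5, 39.01 and 32.9 CPM in Col-0 and 62.2 to 66.4 CPM in prt6-1erfvii. PI4KG5, ETR2 and TIL were called over Col-0 and not over prt6-1erfvii, with log2 fold changes over prt6-1erfvii of 0.08, 0.15 and 0.13. CYP707A3 was called over both, in the comparison with prt6-1erfvii only just, with 0.33 over prt6-1erfvii (edgeR adjusted p = 0.0499). PCO1, PCO2, ADH1 and AHB1 were below every prt6-1 library there, at 2.04 to 4.29, 0.686 to 1.07, 3.24 to 4.75 and 5.19 to 6.88 CPM in prt6-1erfvii.

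Core genes that did not pass the test were of several kinds. EXL1, an EXORDIUM-like gene, had 6.02, 6.35, 9.397 and 7.84 CPM in prt6-1 and 3.57, 3.82, 5.37 and 5.89 CPM in Col-0, without overlap (edgeR adjusted p = 0.0533). RBOHD, the NADPH oxidase of stress signalling, had 89.9, 91.8, 93.8 and 72.9 CPM in prt6-1 and 74.2, 72.1, 72.96 and 78.01 CPM in Col-0, where prt6-1 replicate 4 was the only prt6-1 library within the Col-0 range (edgeR adjusted p = 0.126). These are the 2 core genes that passed without prt6-1 replicate 4, with edgeR adjusted p = 0.0496 for EXL1 and 0.000564 for RBOHD. SRO5, a gene of oxidative stress responses, had a log2 fold change of 0.65 with a standard error of 0.26. AT5G10040 and NIP2-1, an aquaporin gene, had too few counts to be tested. AT5G10040 had 9, 11, 11 and 7 counts in prt6-1, against 0, 1, 0 and 0 counts in Col-0.

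Promoter windows of 5 called core genes are shown to place the motifs often described for hypoxia genes. Each runs from 250 bases before to 50 bases after the annotated transcript start, 5′ to 3′ on the strand of the gene, and was taken from RefSeq (TAIR10.1). Capitals mark AAACCA or its reverse complement TGGTTT, the core of the anaerobic response element, in PCO1 (chr5:4898391-4898690, plus strand), PCO2 (chr5:15974020-15974319, plus strand), ADH1 (chr1:28975005-28975304, plus strand) and PDC1 (chr4:15954754-15955053, minus strand). In AT2G17850 (chr2:7760790-7761089, minus strand) they mark GCCGCC, the GCC box bound by ERF proteins.
PCO1: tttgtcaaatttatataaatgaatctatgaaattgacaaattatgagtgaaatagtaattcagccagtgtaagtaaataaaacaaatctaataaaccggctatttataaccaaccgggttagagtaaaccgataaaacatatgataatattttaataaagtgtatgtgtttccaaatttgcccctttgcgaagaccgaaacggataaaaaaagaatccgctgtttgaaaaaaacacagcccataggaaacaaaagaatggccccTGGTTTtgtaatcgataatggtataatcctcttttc
PCO2: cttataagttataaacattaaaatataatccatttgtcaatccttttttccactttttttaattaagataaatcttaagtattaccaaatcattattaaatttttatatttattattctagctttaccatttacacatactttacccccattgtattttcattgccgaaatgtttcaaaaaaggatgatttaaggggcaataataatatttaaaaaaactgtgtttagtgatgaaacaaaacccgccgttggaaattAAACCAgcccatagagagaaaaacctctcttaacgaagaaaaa
ADH1: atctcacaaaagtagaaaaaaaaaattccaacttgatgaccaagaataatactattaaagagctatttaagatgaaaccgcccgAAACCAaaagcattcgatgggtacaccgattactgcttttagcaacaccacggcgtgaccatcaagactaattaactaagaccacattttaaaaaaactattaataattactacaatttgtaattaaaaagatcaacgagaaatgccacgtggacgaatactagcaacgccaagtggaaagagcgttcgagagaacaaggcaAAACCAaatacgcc
PDC1: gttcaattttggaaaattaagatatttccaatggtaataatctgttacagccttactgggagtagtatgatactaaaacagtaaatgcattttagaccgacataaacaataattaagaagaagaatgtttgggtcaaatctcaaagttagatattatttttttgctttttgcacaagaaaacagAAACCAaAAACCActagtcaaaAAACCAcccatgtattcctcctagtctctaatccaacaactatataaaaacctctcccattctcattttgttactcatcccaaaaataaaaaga
AT2G17850: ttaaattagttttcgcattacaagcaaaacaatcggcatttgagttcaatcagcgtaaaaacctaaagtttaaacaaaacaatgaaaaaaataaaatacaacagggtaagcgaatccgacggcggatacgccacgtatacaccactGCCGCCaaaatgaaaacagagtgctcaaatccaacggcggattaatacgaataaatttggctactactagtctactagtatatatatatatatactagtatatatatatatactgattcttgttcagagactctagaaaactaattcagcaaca

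PDC1 carried 3 copies of AAACCA before its start, ADH1 carried 1 before and 1 after it, and the matches of PCO1 and PCO2 lay within the 50 bases after the start. AAACCA was common. On either strand it was in 32% of the windows of all 27443 protein-coding genes, in 35.7% of those of the genes called higher and in 35.1% of those called lower. It was present in 16 of the 29 core genes called higher (55.2%) and in 9 of the 18 tested and not called (50%). GCCGCC, searched on both strands, was in 2.57% of all windows, 6.79% of those of the genes called higher and 1.35% of those called lower. It was present in 4 of the 29 called core genes (13.8%) and in 0 of the 18 not called. AAACCA and GCCGCC cannot match the same bases. The capitals of PCO1 lay within a full match to the Hypoxia Responsive Promoter Element (HRPE), as its consensus is given in the study's methods. The study describes the HRPE as an element associated with ERFVII function. Shares of windows with the HRPE were not counted here, so the shares above do not describe it. A match describes the letters of a window and not a bound site.

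Large rises were also seen outside the core hypoxia list. AT1G12805, annotated as a nucleotide binding protein, had 10.9, 7.63, 6.92 and 10.1 CPM in prt6-1, against 0.0871, 0.0788, 0.273 and 0 CPM in Col-0 (log2 fold change 6.27 ± 0.34 (SE), edgeR adjusted p = 6.21e-10). AT3G29970, which encodes a B12D protein, had 4.96, 4.91, 4.804 and 2.81 CPM in prt6-1 and 0, 0, 0.234 and 0 CPM in Col-0 (log2 fold change 6.07 ± 0.51 (SE), edgeR adjusted p = 1.57e-06). Both were at or near 0 in prt6-1erfvii as well, at 0 to 0.0742 CPM and at 0 in every library. AT4G11393, a defensin-like gene, had 0 counts in every Col-0 library and 0.834, 0.719, 0.389 and 0.777 CPM in prt6-1. Against a floor of 3 counts per Col-0 library it was at least 5.61-fold higher (edgeR adjusted p = 0.00039). AT3G06435, an uncharacterised protein gene that overlaps AT3G06436 on the opposite strand, had 15.3, 11.6, 14.02 and 13.9 CPM in prt6-1 and 0.915, 1.26, 1.09 and 0.8699 CPM in Col-0 (log2 fold change 3.72 ± 0.15 (SE), edgeR adjusted p = 1.14e-12).

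QQS, an orphan gene known for a part in starch and protein allocation, rose with a small spread between replicates. It had 50.95, 50.7, 47.7 and 49.05 CPM in prt6-1, 2.13, 2.76, 2.65 and 3.08 CPM in Col-0 and 27.2, 32.5, 30.1 and 26.8 CPM in prt6-1erfvii. Its prt6-1 libraries were above both other genotypes (log2 fold change 4.22 ± 0.10 (SE), edgeR adjusted p = 8.63e-17 over Col-0, and log2 fold change 0.76 ± 0.07 (SE), edgeR adjusted p = 3.44e-07 over prt6-1erfvii). AT2G01422, a non-coding RNA, had 2.61, 0.839, 1.201 and 3.99 CPM in prt6-1, 0, 0.158, 0.0389 and 0 CPM in Col-0 and 6.31 to 10.5 CPM in prt6-1erfvii. It thus lay above Col-0 (log2 fold change 5.30 ± 0.76 (SE), edgeR adjusted p = 0.00178) and below prt6-1erfvii (log2 fold change −1.90 ± 0.41 (SE), edgeR adjusted p = 0.00777).

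Fewer genes fell by as much. MRD1, annotated as mto 1 responding down 1, had 1.41, 2.596, 0.883 and 2.07 CPM in prt6-1, against 31.1, 31.7, 31.7 and 34.7 CPM in Col-0 (log2 fold change −4.22 ± 0.18 (SE), edgeR adjusted p = 4.5e-09). AT5G05200, a protein kinase superfamily gene on chromosome 5, had 15.5, 15.2, 15.7 and 12.4 CPM in prt6-1 and 136, 134, 147 and 139 CPM in Col-0 (log2 fold change −3.24 ± 0.08 (SE), edgeR adjusted p = 8.63e-17). Both genes were at the Col-0 level or above it in prt6-1erfvii, at 32.5 to 38.4 CPM and 159 to 162 CPM. Each overlaps annotated genes on the opposite strand, which makes their assignment uncertain. AT5G03090, annotated as a Mto 1 responding down protein like MRD1, had 0.362, 0.1598, 0.353 and 0.259 CPM in prt6-1 and 1.31, 1.02, 1.09 and 0.988 CPM in Col-0 (log2 fold change −1.92 ± 0.36 (SE), edgeR adjusted p = 0.00437). AT2G06995, a non-coding RNA, had 1 count over the 4 prt6-1 libraries and 179 over the 4 Col-0 libraries, a ratio of summed counts of 0.00514 (95% counting interval 0.000129 to 0.0290).

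The rest of the 12 largest falls were in genes of low level. CYP82C2, a cytochrome P450 of indolic defence metabolism, had 0.0725, 0, 0.318 and 0.444 CPM in prt6-1, against 3.05, 1.34, 2.84 and 2.06 CPM in Col-0 (log2 fold change −3.42 ± 0.50 (SE), edgeR adjusted p = 0.0008). TPS12, a terpenoid synthase gene, and CYP71A19, the P450 gene beside it on chromosome 4, fell with log2 fold changes of −2.01 and −1.76. CYP71A19 had 1.85, 1.84, 1.55 and 2.77 CPM in prt6-1 and 7.36, 5.95, 7.16 and 6.68 CPM in Col-0. SAG13, a senescence-associated gene, and AT1G26380, a berberine bridge-type oxidase gene, fell with −1.47 and −1.31. AT3G33528, the pseudogene AT2G16367 and the glycine-rich protein gene AT3G02670 fell with −3.12, −2.42 and −1.69, all below 2 CPM in every prt6-1 and Col-0 library. The calls of SAG13 and AT3G02670 were lost when single libraries were left out.

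Further genes outside the lists, chosen after their values were seen, were called with a clear separation of the genotypes. AT3G03270, annotated as an adenine nucleotide alpha hydrolase-like protein, had 129.7, 104, 113 and 117 CPM in prt6-1, 23.8, 20.96, 22.8 and 22.3 CPM in Col-0 and 19.3 to 23.7 CPM in prt6-1erfvii (log2 fold change 2.37 ± 0.07 (SE), edgeR adjusted p = 1e-14 over Col-0). bHLH093, a basic helix-loop-helix factor gene, had 91.9, 87.9, 74.5 and 86.6 CPM in prt6-1, 31.2, 29.6, 29.4 and 31.6 CPM in Col-0 and 21.5 to 22.9 CPM in prt6-1erfvii (log2 fold change 1.49 ± 0.07 (SE), edgeR adjusted p = 1.31e-11 over Col-0). LBD40, a relative of LBD41, had 1.88, 1.198, 1.98 and 1.74 CPM in prt6-1 and 0.392, 0.236, 0.506 and 0.158 CPM in Col-0 (log2 fold change 2.39 ± 0.35 (SE), edgeR adjusted p = 0.00039). In these 3 genes every prt6-1 library was above every Col-0 and prt6-1erfvii library. AT3G20395, a RING/U-box protein gene, and PI, a MADS-box gene of floral organ identity, were high in both mutant genotypes. AT3G20395 had 19.1, 16.02, 16.8 and 12.9 CPM in prt6-1, 3.35, 3.03, 4.56 and 2.53 CPM in Col-0 and 13.8 to 17.1 CPM in prt6-1erfvii, and PI had 9.42, 6.19, 8.37 and 4.66 CPM in prt6-1, 2.92, 0.906, 0.973 and 1.502 CPM in Col-0 and 9.25 to 11.9 CPM in prt6-1erfvii. HEI10, which overlaps MRD1 on the opposite strand and acts in meiotic recombination, fell with it, at 2.54, 1.12, 1.802 and 1.63 CPM in prt6-1 and 4.23, 3.58, 3.82 and 4.31 CPM in Col-0 (log2 fold change −1.16 ± 0.21 (SE), edgeR adjusted p = 0.0028).

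The light-harvesting antenna genes, whose proteins bind chlorophyll around the photosystems, were mostly lower. Of 21 members, 16 were called lower and 0 higher, against 1.09% of all genes in each direction, and the median log2 fold change was −0.35. Without prt6-1 replicate 4, 19 were called lower, against 3.11% of all genes. The changes were small beside those of the hypoxia genes. LHCB2.3, of the major antenna of photosystem II, had 721, 716, 589.8 and 738 CPM in prt6-1 and 943, 1077, 1009.9 and 1104 CPM in Col-0 (log2 fold change −0.58 ± 0.07 (SE), edgeR adjusted p = 3.21e-05). LHCB1.4 had 2461, 2602, 2283 and 2578 CPM in prt6-1 and 3623, 3639, 3313 and 3552 CPM in Col-0 (log2 fold change −0.51 ± 0.05 (SE), edgeR adjusted p = 4.43e-06). LHCB1.1 and LHCB2.2 fell with log2 fold changes of −0.44 and −0.43. Every prt6-1 library was below every Col-0 library for these 4 genes, and 435 of all 455 genes called had no overlap. LHCB1 and LHCB2 copies are near-identical and only uniquely mapped reads were kept, so both their own levels and the summed level of the list can be undercounted. The summed level was 56137 to 63157 CPM in prt6-1, against 72285 to 77188 CPM in Col-0. The members not called were LHCA2, LHCA5, LHCA6, LHCB7 and LHCB4.3, with log2 fold changes of −0.22, −0.14, −0.23, −0.08 and 0.13.

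The 6 green tissue markers were genes of the Rubisco small subunit, Rubisco activase and photosystem I. RBCS3B and PSAD1 were called lower, with log2 fold changes of −0.22 and −0.21, and 0 were higher. Over all genes tested, 1.09% were called in each direction. With single libraries left out, the call of PSAD1 held only without prt6-1 replicate 2 or 4 (edgeR adjusted p = 0.0581 to 0.110 in the other 6 fits), and that of RBCS3B was lost without Col-0 replicate 4 and without prt6-1 replicate 2 (0.0772 and 0.0758). The summed level overlapped between genotypes, at 30031 to 34672 CPM in prt6-1 and 33236 to 34906 CPM in Col-0. The highest prt6-1 value was that of replicate 4, and without it the prt6-1 range was 30031 to 31226 CPM. Without that library 4 of 6 were called lower, against 3.11% of all genes. Green tissue and root markers were both present, as in whole seedlings. Root markers summed to 112 to 131 CPM in prt6-1 and 100 to 118 CPM in Col-0, with 0 of 8 called. The part of tissue composition in the antenna result was not tested.

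**Figure D4:**
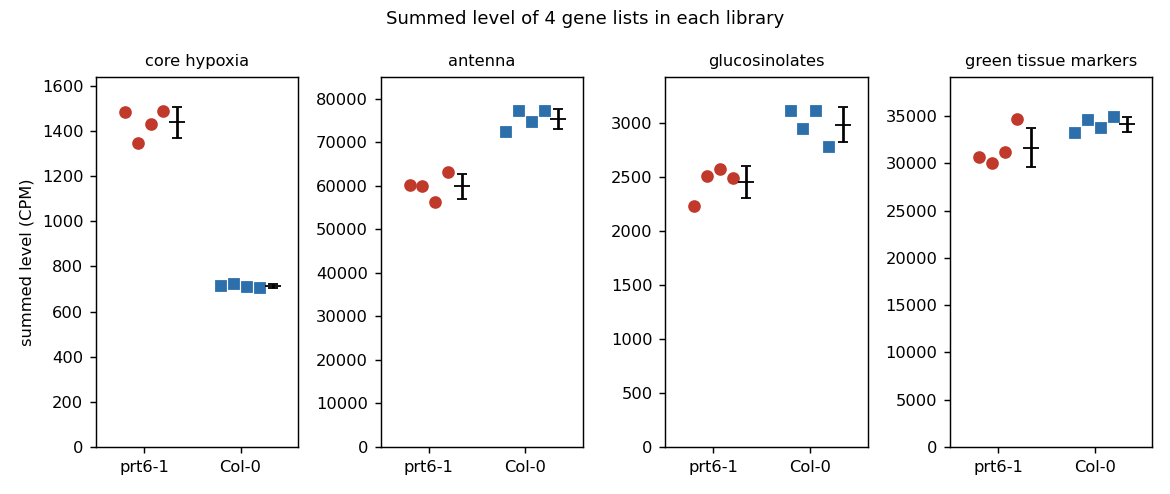
Summed CPM of the members of 4 lists in each library (points) with the mean and SD beside them, for prt6-1 (circles, left) and Col-0 (squares, right), on axes that start at 0. The genotypes separate for the core hypoxia, antenna and glucosinolate lists and overlap for the green tissue markers, where prt6-1 replicate 4 reaches 34672 CPM.

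Most genes of glucosinolate metabolism, which supplies the sulphur-rich defence compounds of the cabbage family, were lower too. Of 15 members, 10 were called lower and 1 higher, against 1.09% of all genes in each direction, and the median log2 fold change was −0.41. BCAT4, the aminotransferase of the first step from methionine, had 53.6, 53.4, 71.4 and 65.3 CPM in prt6-1, against 122, 119.6, 113 and 116 CPM in Col-0 (log2 fold change −0.95 ± 0.08 (SE), edgeR adjusted p = 5.46e-07). MYB29, a regulator of the methionine-derived branch, had 6.12, 6.03, 7.101 and 4.77 CPM in prt6-1 and 11.7, 10.3, 10.01 and 10.4 CPM in Col-0 (log2 fold change −0.81 ± 0.12 (SE), edgeR adjusted p = 0.000477). TGG2, a myrosinase that breaks glucosinolates down, had 183, 214, 194 and 200.4 CPM in prt6-1 and 319, 293, 305 and 293 CPM in Col-0 (log2 fold change −0.61 ± 0.06 (SE), edgeR adjusted p = 1.24e-06). CYP79B2, which starts the tryptophan-derived branch, had 55.5, 54.3, 63.8 and 62.7 CPM in prt6-1 and 92.6, 86.5, 90.6 and 76.4 CPM in Col-0 (log2 fold change −0.55 ± 0.07 (SE), edgeR adjusted p = 0.000119). None of these 4 genes overlapped between genotypes, as in 435 of all 455 genes called. The other lower calls were CYP79F2, MAM1, CYP83A1 and MYB28 of the methionine-derived branch and MYB34 and CYP83B1 of the tryptophan-derived branch, between −0.53 and −0.22. MYB51, a regulator of the tryptophan-derived branch, moved the other way, with 13.8, 15.1, 14.4 and 15.3 CPM in prt6-1 and 10.8, 9.61, 11.2 and 12.3 CPM in Col-0 (log2 fold change 0.42 ± 0.10 (SE), edgeR adjusted p = 0.0211). CYP79F1 was just outside the threshold (log2 fold change −0.51, edgeR adjusted p = 0.0504). The summed level of the list was 2237 to 2579 CPM in prt6-1 and 2778 to 3117 CPM in Col-0.

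In prt6-1erfvii, BCAT4 was at 67.9 to 88.03 CPM, TGG2 at 122 to 159 CPM and LHCB2.3 at 345 to 535 CPM. All of these lay below every Col-0 library, and for TGG2 and LHCB2.3 also below every prt6-1 library. The summed antenna level in prt6-1erfvii was 50105 to 60777 CPM, below every Col-0 library but overlapping the 56137 to 63157 CPM of prt6-1. The summed glucosinolate level in prt6-1erfvii was 1997 to 2086 CPM, below every library of both. PCO1 and ADH1 had their highest level of the 3 genotypes in prt6-1.

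**Figure D5:**
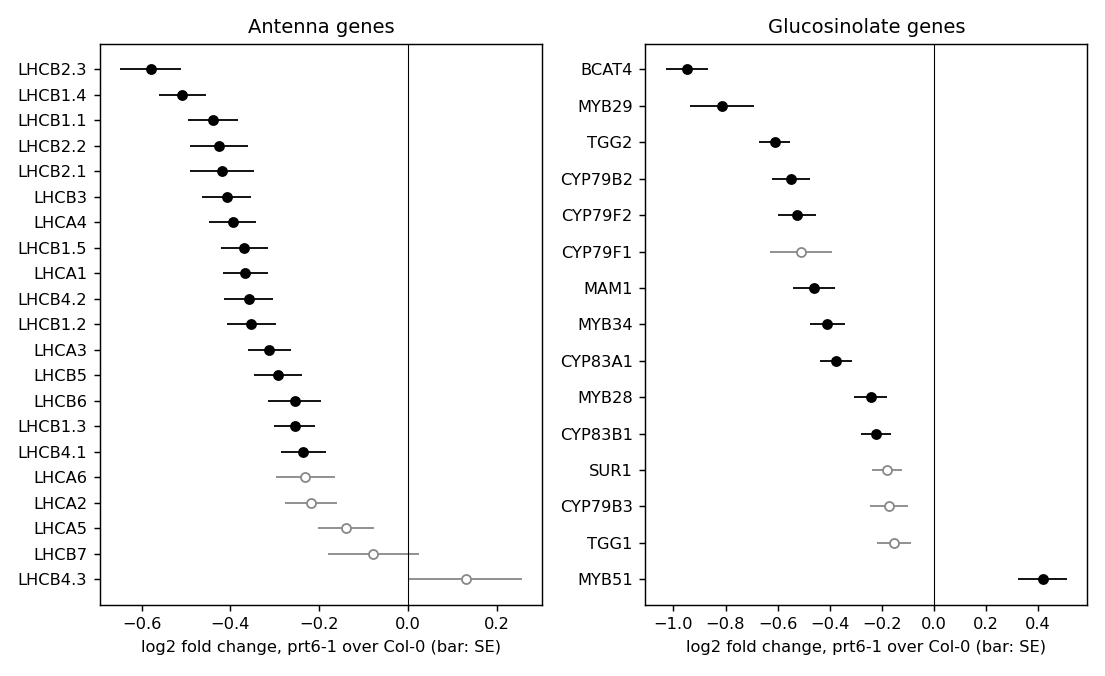
Log2 fold change of prt6-1 over Col-0 (x axis) with its standard error for the 21 antenna genes (left) and the 15 glucosinolate genes (right). Filled points were called at an adjusted p under 0.05, namely 16 antenna genes, all lower, and 11 glucosinolate genes, of which MYB51 alone was higher.

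Of 17 sugar starvation genes, 3 were called higher and 0 lower, against 1.09% of all genes in each direction, with a median log2 fold change of 0.11. PRODH1, proline dehydrogenase, had 283, 242, 303 and 251 CPM in prt6-1, against 153, 152, 143 and 144 CPM in Col-0 (log2 fold change 0.87 ± 0.07 (SE), edgeR adjusted p = 4.37e-08). DIN10, a raffinose synthase family gene named for its induction in the dark, had 299, 264, 372 and 256 CPM in prt6-1 and 218, 209, 206 and 181 CPM in Col-0 (log2 fold change 0.55 ± 0.11 (SE), edgeR adjusted p = 0.0259). TPS8, of the trehalose-6-phosphate synthase family, had a log2 fold change of 0.36 (edgeR adjusted p = 0.0184). For all of these, prt6-1erfvii was higher again, at 770.1 to 873 CPM for PRODH1, 1214 to 1421 CPM for DIN10 and 166 to 181 CPM for TPS8. ASN1, the asparagine synthetase gene most used as a starvation marker, was not called, with 11.9, 9.31, 18.02 and 5.99 CPM in prt6-1, 10.3, 6.89, 5.76 and 4.43 CPM in Col-0 and 273 to 355 CPM in prt6-1erfvii. SEN1, another dark-induced gene, had a log2 fold change of −0.25 over Col-0 and was not called. The calls of DIN10 and TPS8 were lost when some single libraries were left out.

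Single genes were called in several other lists, against 1.09% of all genes called in each direction. ABI5, a bZIP factor of abscisic acid signalling in seeds, had 2.65, 3.27, 2.58 and 2.44 CPM in prt6-1 and 1.26, 1.58, 1.95 and 1.46 CPM in Col-0 (log2 fold change 0.80 ± 0.21 (SE), edgeR adjusted p = 0.0437), and it was the 1 gene called of 6 seed maturation genes tested. Seed storage transcripts were uneven between libraries of both genotypes, with CRA1, a cruciferin, at 6.78, 19.6, 1.802 and 19.3 CPM in prt6-1 and 9.59, 0, 38.2 and 2.57 CPM in Col-0. CYP707A1, an abscisic acid hydroxylase gene, rose with CYP707A3, at 13.4, 11.5, 10.8 and 9.36 CPM in prt6-1 and 7.45, 8.63, 6.85 and 7.91 CPM in Col-0 (log2 fold change 0.55 ± 0.12 (SE), edgeR adjusted p = 0.0156). CCA1, a morning gene of the circadian clock, was the 1 clock gene of 12 called, and was lower, with 68.1, 61.8, 63.3 and 51.3 CPM in prt6-1 and 69.1, 76.8, 80.5 and 87.8 CPM in Col-0 (log2 fold change −0.36 ± 0.08 (SE), edgeR adjusted p = 0.0295). IRT1, the root iron transporter, was called higher (log2 fold change 0.30, edgeR adjusted p = 0.0338), but its libraries overlapped, at 200.4, 202, 209 and 171 CPM in prt6-1 and 150.0, 145, 168 and 175 CPM in Col-0. HSP70-4, a heat shock chaperone gene, had a log2 fold change of 0.29 (edgeR adjusted p = 0.0322). The calls of ABI5, CYP707A1, CCA1, IRT1 and HSP70-4 were each lost when some single libraries were left out. Without prt6-1 replicate 4, the iron list had 3 of 12 called higher, with BHLH39 and FRO2 added to IRT1. The clock list then had 2 called higher, PRR5 and TOC1, beside CCA1. Over all genes, 2.74% were called higher and 3.11% lower without that library.

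Other lists had 0 members called by edgeR at an adjusted p under 0.05. They were 9 alternative respiration genes tested, 16 flavonoid genes, 17 defence genes, 6 nitrate genes, 8 root markers and 4 markers of phloem, guard cells, shoot meristem and dividing cells. AOX1A, the alternative oxidase gene, had 58.1, 57.3, 49.2 and 60.8 CPM in prt6-1 and 65.3, 60.5, 60.2 and 59.6 CPM in Col-0 (edgeR adjusted p = 0.506), and CHS, chalcone synthase, had a log2 fold change of 0.14. Without prt6-1 replicate 4, VSP1 and VSP2, vegetative storage protein genes of the jasmonate response, were called lower, with log2 fold changes of −0.62 and −0.92. Over all genes, 3.11% were called lower without that library. At an unadjusted p under 0.05, edgeR gave 1 higher alternative respiration gene, 1 lower flavonoid gene, 2 higher root markers, 2 higher and 1 lower defence genes and 0 in the other lists named here, against 6.07% higher and 6.46% lower of all genes tested. DESeq2 called 1 flavonoid gene lower and 0 others, against 1.4% higher and 1.63% lower of the 22320 genes to which it gave an adjusted p. Where a list had calls in a single direction, the count of 0 in the other direction was also looked at under an unadjusted p under 0.05 and with DESeq2. It held under both for the core hypoxia, fermentation, sugar starvation, antenna and green tissue lists. The same was true of the N-degron, sucrose entry and glycolysis, haemoglobin and abscisic acid lists. It did not hold throughout for the Met-Cys, seed maturation, iron, clock and heat shock lists. A p that misses the threshold does not show that these genes were equal between genotypes.

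Like ADH1, the named genes PRT6, HRE1, TIL, ACHT5, DIN10, LHCB2.3, BCAT4, TPS12, CYP71A19 and AT3G02670 overlap an annotated gene on the opposite strand and are uncertain to that extent. The calls were spread over the genome. Between 1.78% and 2.47% of the genes tested on each chromosome were called. Within 1 Mb of PRT6 on chromosome 5, 10 of 361 genes were called (2.77%), 3 higher and 7 lower, against 93 of 4501 (2.07%) on the rest of that chromosome. Transcript length made a small difference with all libraries and a larger one without prt6-1 replicate 4. The median log2 fold change was −0.04 for the 473 transcripts of up to 750 bases and 0.04 for the 273 over 5000 bases, and these medians were −0.09 and 0.17 without that library.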

How the data were processed

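Poly(A) RNA of whole seedlings was sequenced in 12 libraries, 4 biological replicates of each of 3 genotypes. The deposited values are counts of reads per gene. Per the labels, the authors aligned reads with HISAT2 2.1.0 to TAIR10 and counted them with featureCounts 1.6.0. Per the study's methods only uniquely mapped reads were kept, so near-identical genes can be undercounted. Strand use in counting is not given in the sources used here.

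Counts of the 4 prt6-1 and 4 Col-0 libraries were filtered with filterByExpr, scaled by TMM and fitted with edgeR 4.0.16 in R 4.3.3 (robust quasi-likelihood test, Benjamini-Hochberg adjusted p under 0.05). The prt6-1 and prt6-1erfvii libraries were fitted in the same way on their own. DESeq2 1.42.0, RLE size factors, other filters, a fit over all 12 libraries, a replicate block and leaving out each library were alternatives. The study compared genotypes with DESeq2. Scripts were tested on simulated counts. Replicate numbers did not pair samples between genotypes. P-values set the difference between genotypes against the spread between these replicate samples. Totals of 23156637 to 27341302 counts per library limit precision for genes of few counts, and counting intervals and floors cover counting error only. Fold changes of genes with few counts depend on the prior count.

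Named were the core hypoxia genes, N-degron enzymes and Met-Cys substrates. Named too were the 12 largest changes in each direction among called genes whose genotypes did not overlap and whose higher genotype had 10 counts or more in each library. In each other list, called members were named, or the 4 largest changes where more were called, except 1 called gene that is not reported here. Further list members are named as examples, chosen after their values were seen. The comparison, its 22 lists and this rule were chosen with earlier results of these data known. Motif windows came from RefSeq TAIR10.1.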

Additional observations from a re-analysis of the deposited data

Results flagged for a closer look

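In 12 of 184 groups of 4 libraries examined, 1 library lay far from the other 3. Chance alone flags about 1 in 20 groups, or 9.2 here. In prt6-1 replicate 4, AT3G29970 had 2.81 CPM against 4.80 to 4.96 CPM in the other prt6-1 libraries, and AT5G05200 had 12.4 CPM against 15.2 to 15.7 CPM. The summed level of the clock list was 454 CPM there, against 535 to 537 CPM in the other prt6-1 libraries, and the median log2 deviation of transcripts over 5000 bases was −0.43, against 0.11 to 0.17. Further prt6-1 libraries that stood apart were replicate 1 for AT4G10270 (14.4 CPM against 12.98 to 13.14), replicate 2 for SAG13 (1.08 CPM against 0.689 to 0.742), and replicate 3 for LHCB2.3 (589.8 CPM against 716 to 738) and for AT2G06995 (0.0353 CPM against 0). In Col-0 they were replicate 2 for TIL (80.9 CPM against 72.3 to 73.0) and replicate 3 for HRA1 (3.82 CPM against 5.97 to 6.26), SUS1 (25.0 CPM against 26.6 to 26.7) and AT3G29970 (0.234 CPM against 0).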

How the results depend on the processing

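Leaving out each library in turn gave 281 to 1231 genes called, 140 to 576 higher and 141 to 655 lower, with the fewest calls without Col-0 replicate 2 (281) and, for lower genes, also without Col-0 replicate 3 (141), and the most without prt6-1 replicate 4 (1231). Requiring at least a 2-fold difference left 81 of the 455. DESeq2 called 363 genes lower, against 228 with edgeR, and 313 higher. The other settings stayed within 1.5 times of the main counts. With replicate numbers as a block, 540 genes were called, 277 higher and 263 lower; same-numbered libraries of the genotypes did not deviate together (correlations −0.07 to 0.05). The PRT6 log2 fold change of 0.04 changed sign without Col-0 replicate 4 (−0.00), prt6-1 replicate 1 (−0.031) or prt6-1 replicate 3 (−0.056), in a range of −0.056 to 0.18 over the left-out libraries. Of the 69 named genes called, 15 lost the call without some library (TIL, PDC2, LDH, EBF1, DIN10, TPS8, ABI5, CYP707A1, IRT1, CCA1, HSP70-4, RBCS3B, PSAD1, AT3G02670 and SAG13) and 5 under another setting (EBF1, DIN10, ABI5, IRT1 and CCA1). None of the 69 changed direction under any alternative run. The cause of these differences was not tested. Depth limits the genes with few counts, such as AT4G11393 and AT2G06995. The counts without prt6-1 replicate 4 given for some lists, and the alternatives for prt6-1 against prt6-1erfvii, were chosen after seeing the data.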
